A study of Mus musculus with 24 samples.

Results

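The genes described here are 9 genes that make, bind, remove or sense retinoic acid, namely Aldh1a2, Aldh1a3, Dhrs3, Crabp1, Crabp2, Cyp26b1, Rara, Rarb and Rarg. They were taken by symbol from the 52178 genes of a deposited table of estimated RNA-seq counts, where each symbol matched a single Ensembl gene row (Aldh1a2 ENSMUSG00000013584, Aldh1a3 ENSMUSG00000015134, Dhrs3 ENSMUSG00000066026, Crabp1 ENSMUSG00000032291, Crabp2 ENSMUSG00000004885, Cyp26b1 ENSMUSG00000063415, Rara ENSMUSG00000037992, Rarb ENSMUSG00000017491 and Rarg ENSMUSG00000001288). Retinoic acid is a vitamin A derivative that enters the nucleus and binds retinoic acid receptors, which sit on response elements in DNA as partners of the retinoid X receptors. Its level in a cell is set by aldehyde dehydrogenases that make it, by reductases and cytochromes that draw off its precursor or degrade it, and by small binding proteins in the cytoplasm. In the developing limb and growth plate, retinoid signalling is known to hold back cartilage formation, and unliganded receptors are known to act as repressors in chondrocytes.

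RNA was sequenced from mouse cartilage explants in 24 libraries, with 4 libraries in each of 6 groups. The hip cap is the articular cartilage of the femoral head, taken from male mice of 4 weeks of age, and each hip cap sample pooled 2 caps. The metatarsals were embryonic growth plate rudiments of day E15, of unknown sex, pooled 6 to a sample. Both came from the same strain, written C57/BL6 in the labels and C57/BL6J in the study's methods. Both tissues were cultured for 24 h, kept without load (0 MPa, control) or placed under hydrostatic pressure of 5 MPa or 50 MPa for 1 h, and cultured for another 24 h before RNA was extracted. The sample labels write the pressure unit as mPa and the study's text as MPa, and the latter was used. Tissue, age, sex and culture medium changed together between hip caps and metatarsals, so their parts in any difference between the tissues cannot be told apart.

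Values are CPM, counts scaled to a common library size with the factors of the TMM method. The total counts ranged from 4185241 to 25104240 per library. The study reports that RNA integrity fell short of its ideal minimum in all samples, and proposes that the RNA was partly degraded. The part of degradation in the values below was not tested. Tests used the 22 libraries the study kept, which left 3 hip cap controls and 3 hip caps at 50 MPa, because control replicate 4 and 50 MPa replicate 2 had stood apart in its clustering. All 9 genes passed the filter on low counts among 21283 genes tested. The chondrocyte markers, 8 genes led by Col2a1, were detected in both tissues, but their summed level was 20600 to 74100 CPM in the hip caps used and 1640 to 4330 CPM in metatarsals. The 8 skeletal muscle markers summed to 8.42 to 43.9 CPM in hip caps and 437 to 2550 CPM in metatarsals, and Tnnc2 and Myog were at 0 in the hip cap controls used. The 8 fibroblast and perichondrium markers summed to 1730 to 7040 CPM in hip caps and 4950 to 7700 CPM in metatarsals. That sum was led by Col1a1. In controls 7 of the 8 genes were lower and 1 was higher in hip caps (edgeR, adjusted p of at most 0.05). Over all genes 15.9% were lower and 14.1% higher, and the median log2 fold change of the 8 was -3.12. In hip caps and metatarsals the sums were 214 to 506 and 99.8 to 208 CPM for tendon, 52 to 261 and 78.9 to 125 CPM for endothelial cells, 153 to 919 and 72.5 to 123 CPM for macrophages and osteoclasts, and 48.7 to 181 and 22.8 to 40.4 CPM for Schwann cells and nerve. The tendon sum was led by Fmod, and in controls Fmod was the only one of the 5 tendon genes that was higher in hip caps, while Kera, Tnmd and Scx were lower (edgeR, adjusted p of at most 0.05) and the median log2 fold change of the 5 was -1.18. The macrophage and osteoclast sum was led by Acp5, the only one of its 6 genes that passed in controls. The Schwann and nerve sum was led by S100b, and of its 5 tested genes 1 was higher and 1 lower in hip cap controls. The part of these cell types in the differences between tissues below was not tested. In bulk tissue, fewer cells of a type and less RNA per cell cannot be told apart.

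Rarb is the textbook example of a gene that retinoic acid switches on directly, through a response element called DR5, a direct repeat of a hexamer with a spacer of 5 bases. RefSeq promoter windows (build GRCm38.p6, from 250 bases before to 50 after a start site) were held for 7 of the 9 genes, in 13 windows. A search of both strands found a DR5 in 1 of those 13, that of Rarb, and in 0.0974% of all 32851 windows. The stretch is shown because Rarb, of the 3 receptors, differed most between the tissues. It lies at chr14:16575483-16575569 on the minus strand, the capitals mark the match, and 36 bases separate the match from the annotated start.
Rarb: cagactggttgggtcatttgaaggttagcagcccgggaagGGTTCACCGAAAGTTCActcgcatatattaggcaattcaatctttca
The related DR2 repeat was found in none of the 13 windows and in 0.268% of all windows. A match describes letters only, and binding was not measured here.

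In control explants, the binding proteins, the synthetic enzyme Aldh1a2 and the receptors Rara and Rarb were lower in hip caps than in metatarsals, while Dhrs3 and Rarg were higher. Of the 9 genes, 5 were lower and 2 were higher in hip caps by edgeR's quasi-likelihood test (Benjamini-Hochberg adjusted p of at most 0.05). Over all genes tested, 29.9% passed in either direction, 15.9% lower and 14.1% higher. The median log2 fold change was -1.74 over the 9 genes and -0.08 over all genes. The plot of CPM by group shows every library.

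**Figure D1:**
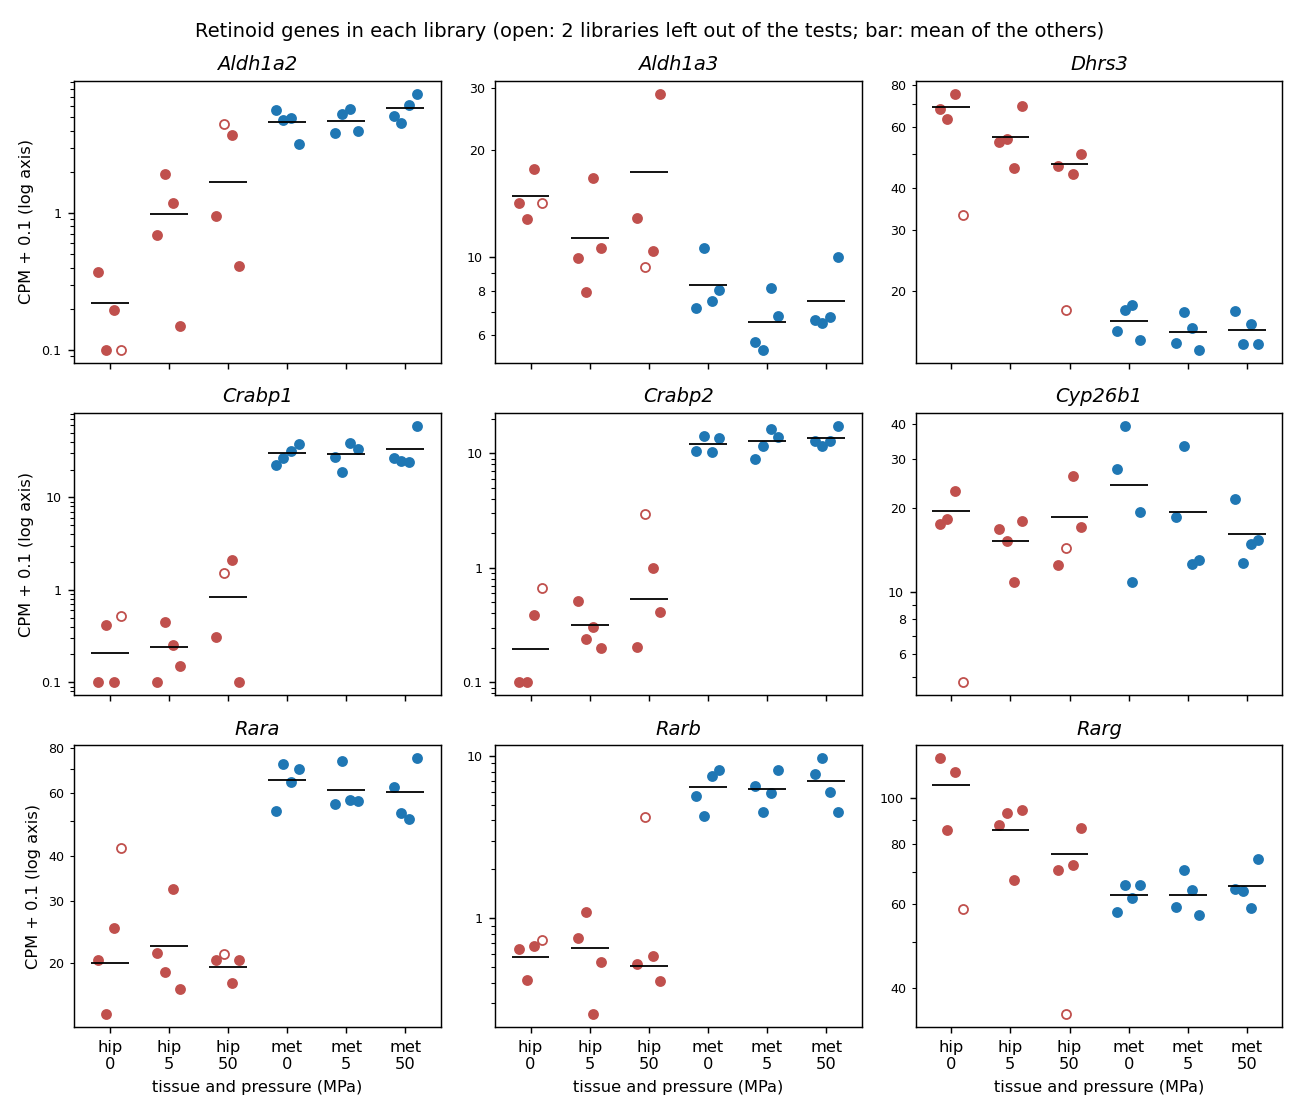
CPM plus 0.1 of each gene on a log axis, for the 6 groups of 4 libraries (hip, hip caps; met, metatarsals; pressure in MPa). Filled points are the 22 libraries used, open points the 2 left out, and bars the group means without those 2; Crabp1, Crabp2, Rara and Rarb of the hip caps used lie below every metatarsal library, and Dhrs3 lies above.

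Aldh1a2 makes retinoic acid from retinaldehyde and is the main such enzyme of the embryo. It had 1, 0 and 1 counts in the hip cap controls used (0.272, 0.0 and 0.0953 CPM). In the metatarsal controls it had 29, 87, 84 and 40 counts (5.55, 4.65, 4.80 and 3.09 CPM). The hip caps held 2 counts in all and lay below every metatarsal library, which held for 22.8% of all genes. The ratio of pooled, scaled counts was 45.2 in favour of metatarsals, with an exact 95% interval from 12.4 to 375 that covers counting error only. The fitted log2 fold change was -5.75 ± 1.15 (SE; edgeR, adjusted p = 0.000811), a value that depends on the prior count when a group is this close to 0.

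Aldh1a3, another enzyme of the same step, was not lower in hip caps. Its level was 14.1, 12.7 and 17.6 CPM in hip cap controls and 7.08, 10.5, 7.38 and 7.95 CPM in metatarsal controls. Every hip cap library was above every metatarsal library, which held for 19.6% of all genes, and the difference did not pass the test (log2 fold change 0.71 ± 0.39, edgeR adjusted p = 0.182).

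Dhrs3 reduces retinaldehyde back to retinol and so draws off the precursor of retinoic acid. It was measured at 67.9, 63.6 and 75.1 CPM in hip cap controls and at 15.1, 17.4, 18.0 and 14.2 CPM in metatarsal controls. The groups were far apart, with means of 68.9 ± 5.77 (SD, n = 3) and 16.2 ± 1.81 CPM (SD, n = 4), a log2 fold change of 2.21 ± 0.20 (edgeR, adjusted p = 5.36e-08). The control library left out, replicate 4, had 33.2 CPM and was still above all metatarsals.

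Crabp1 and Crabp2 encode the cellular retinoic acid binding proteins, of which Crabp2 is known to hand its ligand to the receptors. Crabp1 had 0, 2 and 0 counts in the hip cap controls used and 22.6, 26.8, 31.8 and 38.2 CPM in the metatarsal controls, where no library had fewer than 118 counts. The pooled ratio was 314 in favour of metatarsals, with an exact 95% interval from 86.9 to 2600 for counting error only. Crabp2 had 0, 0 and 3 counts in hip caps and 54, 266, 176 and 173 counts in metatarsals (10.3, 14.2, 10.1 and 13.4 CPM). Its pooled ratio was 83.9 (28.6 to 408). Both passed the test (edgeR, adjusted p = 1.67e-06 for Crabp1 and 1.32e-07 for Crabp2), and both remained below every metatarsal library in the control library left out, with 6 and 8 counts.

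Cyp26b1 degrades retinoic acid and is the family member best known for limb and skeletal cartilage. It was the gene with the widest spread among metatarsal controls, at 27.4, 39.1, 10.8 and 19.2 CPM, against 17.4, 18.1 and 22.9 CPM in hip caps. The ranges overlapped and the log2 fold change was -0.36 ± 0.52 (edgeR, adjusted p = 0.651). The highest library, metatarsal control replicate 2, was also the only metatarsal library with a high sum of the 6 epidermal markers, 251 CPM against at most 4.94 CPM in the others, and their part in its Cyp26b1 level was not tested. The next highest library, metatarsal 5 MPa replicate 2, had 33.1 CPM of Cyp26b1 and an epidermal sum of 4.32 CPM.

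The 3 receptors went different ways. Rara, a receptor found in most tissues, was measured at 20.4, 14.3 and 25.0 CPM in hip cap controls and at 53.2, 72.3, 64.4 and 69.7 CPM in metatarsal controls, so that all hip caps were lower (log2 fold change -1.74 ± 0.23, edgeR adjusted p = 9.17e-06). Rarb had 2, 2 and 6 counts in hip caps (0.544, 0.318 and 0.572 CPM) and 29, 78, 129 and 105 counts in metatarsals (5.55, 4.17, 7.38 and 8.11 CPM). It was lower in every hip cap library (log2 fold change -3.25 ± 0.57, edgeR adjusted p = 0.000193). Rarg, the receptor type best known from growth plate chondrocytes, was higher in hip caps, at 121, 85.4 and 113 CPM against 57.6, 65.6, 61.6 and 65.5 CPM. Its log2 fold change was 0.73 ± 0.18 (edgeR, adjusted p = 0.00481), scaled by library size only it was -0.18, and with all 24 libraries it was 0.39 (adjusted p = 0.289).

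The scaling matters because library sizes alone moved the median over all genes to -0.97. Sequencing runs were read from the study's clustering figure, which does not match its methods, so they are uncertain here and below. By these runs, metatarsal control replicate 1 was the only metatarsal control sequenced together with the hip cap controls used. Without it Rarg fell to 0.56 (edgeR, adjusted p = 0.229) and Rarb stood at -2.69 (adjusted p = 0.0505), while the other 5 calls held. Genes with few counts moved by more than 1.5 times in fold when a single library was left out, with their calls kept. Crabp1 stood at -8.74 with all libraries used, at -12.85 without hip cap control replicate 2, at -6.77 without hip cap control replicate 3, at -13.16 without metatarsal control replicate 1 and at -6.78 without metatarsal 50 MPa replicate 4. Crabp2 stood at -6.60, and at -10.26 without either hip cap control replicate 3 or metatarsal 50 MPa replicate 4, and at -5.90 without metatarsal control replicate 1. Aldh1a2 moved to -6.46 without hip cap control replicate 1. The bars in the plot of log2 fold changes between tissues show these errors.

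**Figure D2:**
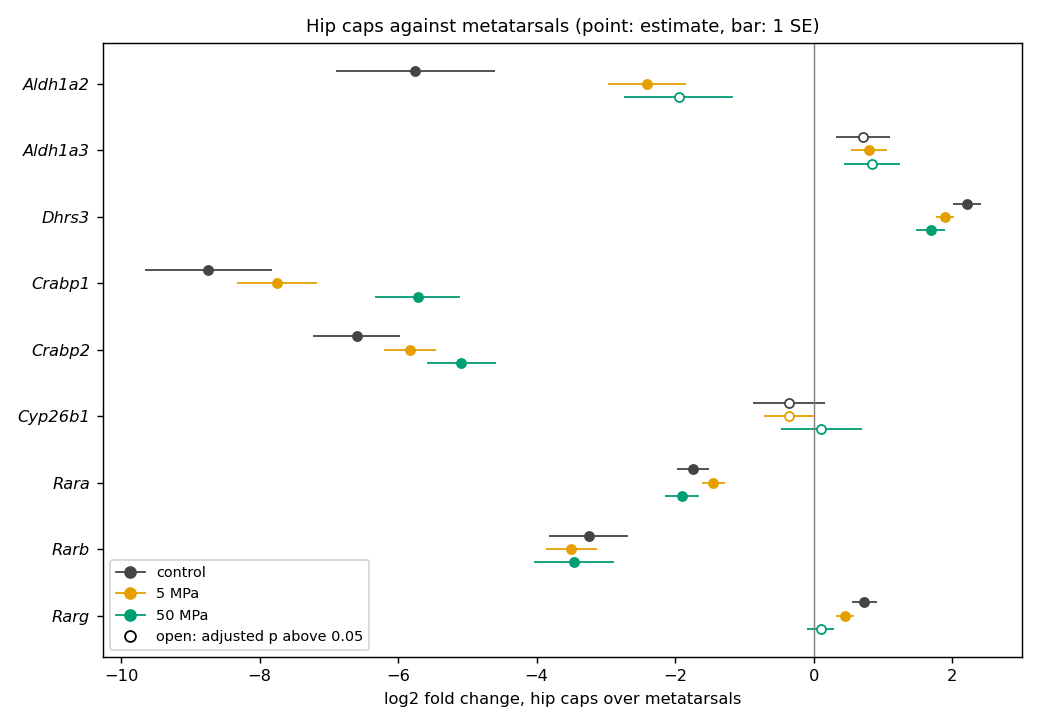
Log2 fold change of each gene, hip caps over metatarsals, in controls, at 5 MPa and at 50 MPa; points are edgeR estimates, bars 1 SE, and open points have an adjusted p above 0.05. Crabp1, Crabp2, Rarb and Rara lie left of 0 and Dhrs3 lies right of 0 in the 3 conditions, from 1.69 to 2.21.

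Compared per kilobase of the longest coding transcript, the order of the levels differed between the tissues. In metatarsal controls Crabp1 was the highest of the 9 at 37.2 ± 8.40 CPM per kb (SD, n = 4), above Rarg at 21.2 ± 1.29 and Rara at 19.2 ± 2.50, and the ranges of the latter pair overlapped. Crabp2 followed at 12.9 ± 2.26 CPM per kb and Dhrs3 at 6.92 ± 0.775, with Cyp26b1, Aldh1a3, Rarb and Aldh1a2 below, each overlapping its neighbour. In hip cap controls Rarg at 36.0 ± 6.30 (SD, n = 3) and Dhrs3 at 29.5 ± 2.47 CPM per kb led the order and overlapped. Rara at 5.88 ± 1.58, Cyp26b1 at 4.33 ± 0.660 and Aldh1a3 at 4.31 ± 0.732 CPM per kb formed an overlapping middle. Rarb, Crabp1, Crabp2 and Aldh1a2 were at or below 0.154 CPM per kb and did not differ beyond their spread.

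The same tissues were compared at 5 MPa, where all 8 libraries were of the same library type. As read from the study's clustering figure, they also came from the same sequencing run. Here 8 of the 9 genes passed edgeR's test, 5 lower and 3 higher in hip caps. Of all genes, 37.9% passed, 19.1% lower and 18.8% higher. Crabp1 had a log2 fold change of -7.75 ± 0.58, Crabp2 of -5.83 ± 0.38 and Rarb of -3.50 ± 0.37. Without hip cap 5 MPa replicate 2 Crabp1 stood at -8.48. Rara stood at -1.45 ± 0.17 and Dhrs3 at 1.90 ± 0.13 (edgeR, adjusted p = 3.92e-10). Aldh1a3 (0.80 ± 0.26, adjusted p = 0.0183) and Rarg (0.45 ± 0.13, adjusted p = 0.00816) passed although their ranges overlapped. With all 24 libraries in the fit the adjusted p was 0.051 for Aldh1a3 and 0.167 for Rarg, and with library sizes alone Aldh1a3 stood at 0.15 and Rarg at -0.16, neither past the threshold.

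At 5 MPa Aldh1a2 stood at -2.41 ± 0.56 (edgeR, adjusted p = 0.00194), with 10, 26, 21 and 1 counts in hip caps and 83, 96, 96 and 91 counts in metatarsals. All hip caps were lower than all metatarsals, as for 21.5% of all genes. The pooled ratio was 5.50 in favour of metatarsals, with an exact 95% interval from 4.16 to 7.39 for counting error. Cyp26b1 did not pass (-0.35 ± 0.37, adjusted p = 0.483).

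At 50 MPa, 5 of the 9 genes passed edgeR's test. Of all genes, 19.7% passed, 9.58% lower and 10.1% higher. Crabp1 (-5.72 ± 0.62), Crabp2 (-5.09 ± 0.50), Rarb (-3.46 ± 0.58) and Rara (-1.90 ± 0.24) were lower and Dhrs3 was higher (1.69 ± 0.21) in hip caps. Aldh1a2 stood at -1.95 ± 0.79 (adjusted p = 0.0938), Aldh1a3 at 0.84 ± 0.40 (adjusted p = 0.157), Rarg at 0.10 ± 0.19 and Cyp26b1 at 0.11 ± 0.58. All hip caps at 50 MPa were unstranded libraries, and of the metatarsals only 50 MPa replicate 4 was. Without that library the Crabp1 estimate was 0.53 (adjusted p = 0.927), although Crabp1 had 400, 555 and 400 counts in the remaining metatarsals and 2, 29 and 0 in the hip caps used. Without the same library Crabp2 stood at -9.40 (adjusted p = 0.0279) and Rarb at -4.41 (adjusted p = 0.0484). Without hip cap 50 MPa replicate 3 Crabp1 stood at -8.44 and Crabp2 at -6.79. Rarb (-1.97, adjusted p = 0.139) and Dhrs3 (1.16, adjusted p = 0.066) did not pass with all 24 libraries, and with library sizes alone Dhrs3 stood at 0.72 (adjusted p = 0.129).

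Across the 10 hip cap and 12 metatarsal libraries used, Rara, Rarb, Crabp1 and Crabp2 were lower in every hip cap library and Dhrs3 was higher. Ranges that did not overlap in this way were seen in 16.1% of all genes. Rara ran from 14.3 to 32.3 CPM in hip caps (median 20.3) and from 50.7 to 74.9 CPM in metatarsals (median 59.6). Crabp1 reached 2.01 CPM at most in hip caps and 18.8 CPM at least in metatarsals. Aldh1a2 did not separate, with a highest hip cap library of 3.61 CPM and a lowest metatarsal library of 3.09 CPM. Nor did Rarg, with a lowest hip cap library of 67.2 CPM and a highest metatarsal library of 74.5 CPM.

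The rest of the pathway was read from a list of 33 further genes, of which 28 were tested. In controls 8 of the 28 were higher and 4 lower in hip caps (edgeR, adjusted p of at most 0.05), against 14.1% higher and 15.9% lower over all genes, and their median log2 fold change was 0.34 against -0.08. The number lower was near the share over all genes. Among 11 tested genes of retinol handling 2 were higher, also near that share. Rbp4, which carries retinol in the circulation, averaged 574 ± 88.9 CPM in the 3 hip caps and 6.72 ± 1.47 CPM in the 4 metatarsals (SD), the largest difference of the list (log2 fold change 6.26 ± 0.42, adjusted p = 1.28e-09). Dhrs9, a retinol dehydrogenase, was the other (1.50 ± 0.30).

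The remaining retinaldehyde dehydrogenase, Aldh1a1, was higher in hip caps (3.44 ± 1.03, edgeR adjusted p = 0.0153) at a low level of 2.89 ± 0.359 CPM against 0.374 ± 0.401. Cyp26a1 and Cyp26c1, the other degrading cytochromes, were too low to be tested. Of 4 partner receptors and carriers, Rxrg (-2.36 ± 0.58) and Fabp5, a fatty acid binding protein that can also carry retinoic acid (-3.22 ± 0.34), were lower in hip caps, while Rxra and Rxrb did not pass. Of 6 coregulators, Ncoa3 was higher (2.08 ± 0.20) and Ncoa1 (-1.05 ± 0.13) and Nrip1 (-0.56 ± 0.19) were lower. Over all genes 14.1% were higher and 15.9% lower, and the 1 higher coregulator of 6 was near that share.

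Of 6 tested genes known to respond to retinoic acid elsewhere, 4 were higher in hip caps and none was lower, where 14.1% of all genes were higher and 15.9% lower. They were the transglutaminase Tgm2 (3.38 ± 0.29, edgeR adjusted p = 2.98e-08), Rarres1 (3.29 ± 0.47) and the homeobox genes Meis2 (2.54 ± 0.38) and Meis1 (2.00 ± 0.31), and the lowest of the group was Rarres2 at 0.43 ± 1.04. Rarb, itself such a target, was lower in hip caps, as described above. The plot of the other pathway genes gives their estimates.

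**Figure D3:**
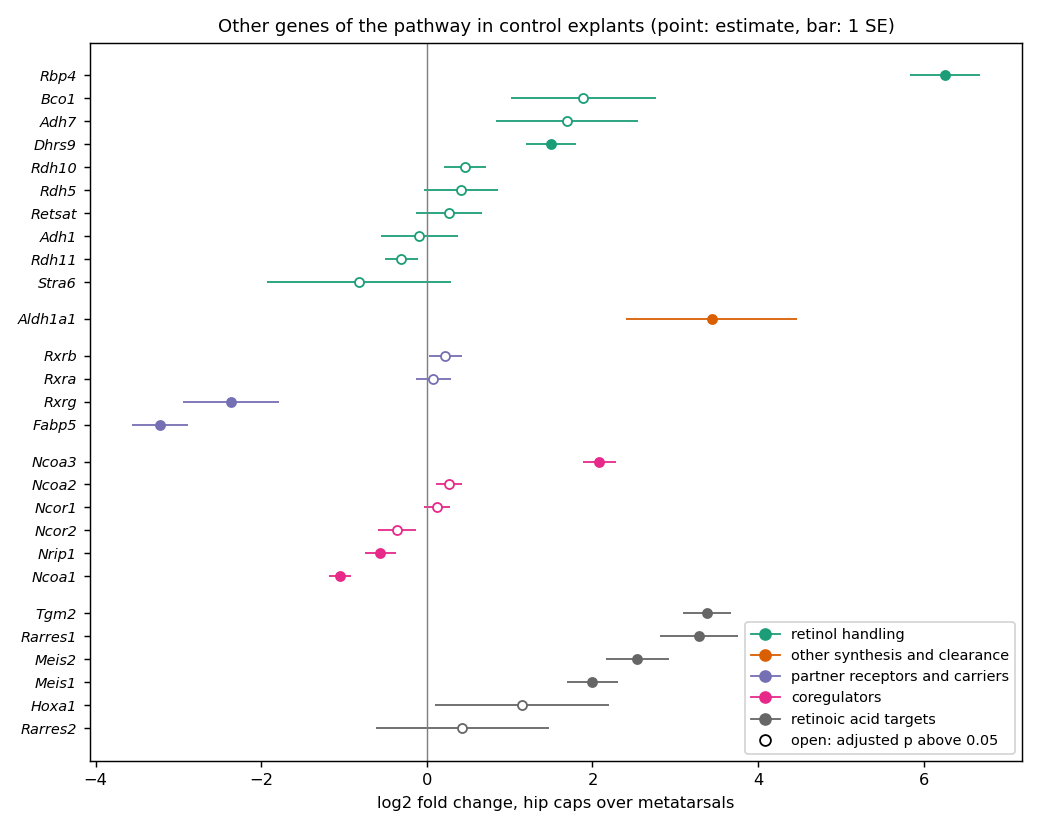
Log2 fold change in control explants, hip caps over metatarsals, of 27 of the 28 tested genes of the wider retinoid pathway, coloured by list; points are edgeR estimates, bars 1 SE, and open points have an adjusted p above 0.05. Rbp4 lies farthest right at 6.26 and Fabp5 farthest left at -3.22.

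The effect of pressure was asked within each tissue, with the 5 MPa and 50 MPa groups of a tissue compared with the same controls. None of the 9 genes passed edgeR's test in any of the 4 comparisons. In hip caps 0.0188% of all genes were called at 5 MPa and 5.18% at 50 MPa, and in metatarsals 0.0% at either pressure. At an unadjusted p under 0.05 there were 2 of the 9 genes in hip caps at 5 MPa, 3 in hip caps at 50 MPa and none in metatarsals. The same limit was met by 14.8% and 22.6% of all genes in hip caps and by 3.24% and 3.89% in metatarsals, at 5 and 50 MPa, so the counts in hip caps were near the background. DESeq2 called none at 5 MPa or in metatarsals and 3 in hip caps at 50 MPa. Its share over all genes, at 5 and 50 MPa, was 2.71% and 11.5% for hip caps and 0.0611% and 0.0423% for metatarsals. The plot of pressure against control shows the estimates.

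**Figure D4:**
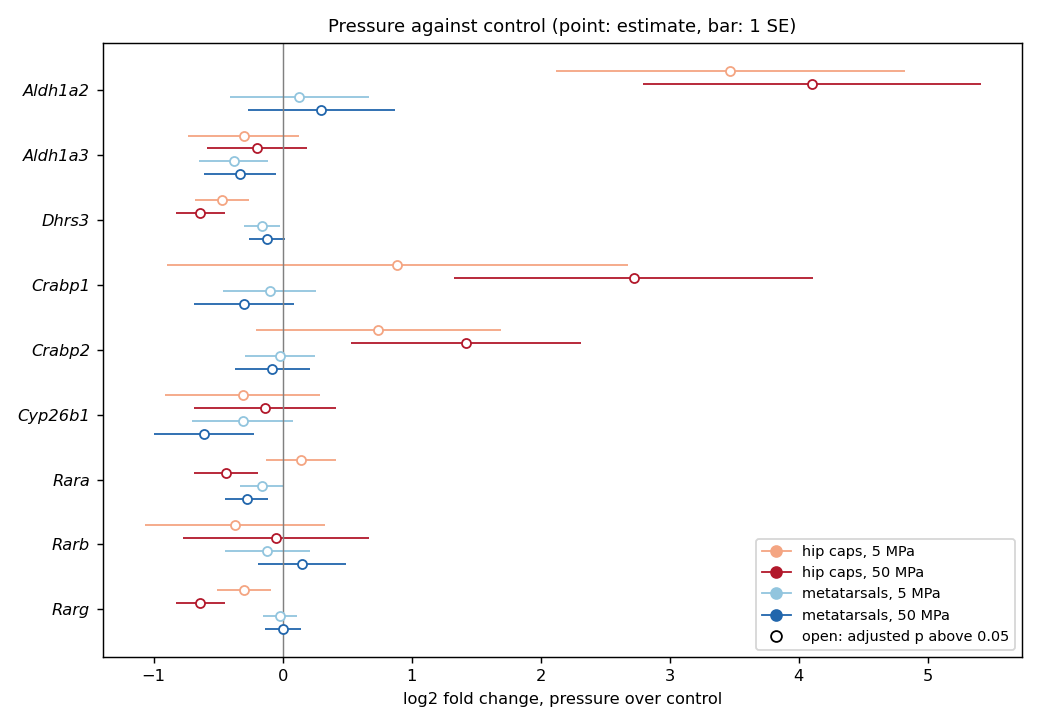
Log2 fold change of each gene, pressure over control, in hip caps and metatarsals at 5 and 50 MPa; points are edgeR estimates, bars 1 SE, and open points, which are all of them, have an adjusted p above 0.05. Aldh1a2 in hip caps lies farthest from 0, at 3.47 and 4.10, with errors of 1.35 and 1.31.

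Aldh1a2 in hip caps had the largest estimates of the 9 genes, none past the threshold. Against 1, 0 and 1 counts in controls it had 10, 26, 21 and 1 counts at 5 MPa (0.595, 1.83, 1.08 and 0.0488 CPM). At 50 MPa it had 8, 52 and 1 counts in replicates 1, 3 and 4 (0.844, 3.61 and 0.309 CPM). In CPM all 3 libraries used at 50 MPa were above all controls, which was so for 8.19% of all genes, while at 5 MPa replicate 4 lay within the range of the controls. Replicate 4 at 50 MPa and control replicate 1 had 1 count each, at 0.309 and 0.272 CPM. Their order thus rests on the scaling and not on more counts. The ratio of pooled counts to control was 8.37 at 5 MPa (exact 95% interval 2.21 to 70.7) and 23.0 at 50 MPa (6.10 to 194), intervals that cover counting error and not the spread between cultures. The summed skeletal muscle markers also separated, at 8.42 to 14.3 CPM in controls and 28.3 to 43.9 CPM at 50 MPa, and their part in the Aldh1a2 counts was not tested.

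The fitted log2 fold changes of Aldh1a2 were 3.47 ± 1.35 at 5 MPa (edgeR, adjusted p = 0.249) and 4.10 ± 1.31 at 50 MPa (adjusted p = 0.0719). At 50 MPa replicate 3 carried most of the counts, and without it the estimate was 2.60 (adjusted p = 0.314). DESeq2 gave an adjusted p of 0.0193 at 50 MPa. By the study's clustering figure, all hip caps at 5 MPa were sequenced in the run that held none of the hip cap controls used. Within hip caps that run and 5 MPa thus cannot be told apart. In metatarsals Aldh1a2 was at 3.73 to 5.65 CPM at 5 MPa and 4.45 to 7.31 CPM at 50 MPa against 3.09 to 5.55 CPM in controls, with log2 fold changes of 0.13 ± 0.54 and 0.30 ± 0.57. The interaction of tissue and pressure for Aldh1a2 was 3.34 ± 1.41 at 5 MPa (edgeR, adjusted p = 0.398) and 3.80 ± 1.36 at 50 MPa (adjusted p = 0.145).

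Dhrs3 and Rarg in hip caps lay just outside the threshold at 50 MPa, both in the direction of a lower level. Dhrs3 was at 46.3, 43.6 and 50.1 CPM at 50 MPa, below all 3 controls, which was so for 7.56% of all genes. At 5 MPa it was at 54.3, 55.5, 45.6 and 69.3 CPM, overlapping the controls. Its log2 fold change was -0.47 ± 0.21 at 5 MPa (edgeR, adjusted p = 0.315) and -0.64 ± 0.19 at 50 MPa (adjusted p = 0.0511).

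Rarg was at 70.6, 72.2 and 86.3 CPM at 50 MPa, and its highest library overlapped the lowest control of 85.4 CPM. The log2 fold change was -0.64 ± 0.19 (edgeR, adjusted p = 0.0535). DESeq2 gave adjusted p-values of 0.0192 for Dhrs3 and 0.0169 for Rarg. With each library left out in turn, edgeR's test passed Dhrs3 in 11 of 22 fits and Rarg in 10 of 22. Control replicate 3 was the only unstranded hip cap control, and without it the estimates were -0.45 (edgeR, adjusted p = 0.628) for Dhrs3 and -0.85 (adjusted p = 0.317) for Rarg. Over the same hip caps the summed chondrocyte markers were 44700 to 74100 CPM in controls and 30800 to 35200 CPM at 50 MPa, and the 6 macrophage and osteoclast markers were 153 to 275 and 329 to 867 CPM. The sums also did not overlap for skeletal muscle, as given above, for tendon (395 to 465 and 214 to 335 CPM) and for Schwann cells and nerve (99.6 to 181 and 54.1 to 57.0 CPM). Fmod led the tendon sum and S100b the Schwann and nerve sum. In each of those lists 1 of 5 tested genes lay below all controls, as did 7.56% of all genes. The median log2 fold changes of these lists were -0.03 and 0.04. The part of these cell types in the values of the 9 genes under pressure was not tested.

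The binding proteins had few counts in most hip caps under pressure, apart from replicate 3 at 50 MPa. Crabp1 had 0, 5, 3 and 1 counts at 5 MPa and 2, 29 and 0 counts at 50 MPa in replicates 1, 3 and 4. Crabp2 had 7, 2, 4 and 2 counts at 5 MPa and 1, 13 and 1 counts at 50 MPa. The pooled ratio of 50 MPa to control was 11.7 for Crabp1 (exact 95% interval 2.97 to 101) and 3.77 for Crabp2 (1.07 to 20.3), for counting error only. Replicate 3 at 50 MPa was thus the high library for Aldh1a2, Crabp1 and Crabp2, and it also had the highest Cyp26b1 level of the hip caps, 25.9 CPM against 12.4 and 17.0 CPM in replicates 1 and 4. Of these 3 libraries it also had the highest sums of skeletal muscle (43.9 against 28.3 and 40.2 CPM), tendon (335 against 265 and 214 CPM) and chondrocyte markers (35200 against 30800 and 32700 CPM), and the lowest of macrophages and osteoclasts (329 against 745 and 867 CPM). Its fibroblast and perichondrium sum of 2590 CPM lay between theirs. The estimates at 50 MPa were 2.72 ± 1.39 for Crabp1 (edgeR, adjusted p = 0.258) and 1.42 ± 0.89 for Crabp2 (adjusted p = 0.363), and without replicate 3 they were -0.01 and -0.29. In replicate 2, left out of the tests, 4 of the 9 genes were above every control used, as were 44.1% of all genes.

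Aldh1a3, Cyp26b1, Rara and Rarb had log2 fold changes between -0.44 and 0.14 in hip caps at either pressure, with adjusted p-values of 0.317 or more in edgeR's test. Rara at 50 MPa was the lowest of these at -0.44 ± 0.25, with 20.3, 17.5 and 20.4 CPM inside the range of the controls. Aldh1a3 reached 28.8 CPM in replicate 4 at 50 MPa, above the 10.3 and 12.8 CPM of the other libraries used. In metatarsals the 9 genes stood between -0.61 (Cyp26b1 at 50 MPa, ± 0.39) and 0.30, and the ranges of pressure and control libraries overlapped for each of the 9, where 2.88% of all genes at 5 MPa and 4.48% at 50 MPa did not overlap. The interaction of tissue and pressure passed for none of the 9 genes, with 0.0188% of all genes called at 5 MPa and 0.132% at 50 MPa. At an unadjusted p under 0.05 there were 1 and 4 of the 9, against 11.2% and 18.3% of all genes. DESeq2 called none at 5 MPa and 1, Aldh1a2 (adjusted p = 0.0486), at 50 MPa, against 0.601% and 6.34% of all genes.

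In the wider pathway 2 of the 28 tested genes passed edgeR's test in hip caps at 50 MPa, and none at 5 MPa or in metatarsals. The 2 calls were near the 5.18% of all genes called in that comparison. At an unadjusted p under 0.05 there were 3 and 4 of the 28 in hip caps at 5 and 50 MPa, against 14.8% and 22.6% of all genes. In metatarsals there were 3 and 1, against 3.24% and 3.89% of all genes. DESeq2 called 2 in hip caps at 50 MPa, against 11.5% of all genes, and none at 5 MPa or in metatarsals. For the interaction with 50 MPa edgeR called none and DESeq2 called 1, against 6.34% of all genes. In hip caps Fabp5 rose from 7.87 ± 3.26 CPM in controls to 20.9 ± 4.66 CPM at 50 MPa (SD, n = 3 each), with no overlap. Its log2 fold change was 1.93 ± 0.40 (edgeR, adjusted p = 0.0163). Rxrb, a partner receptor, fell by 0.85 ± 0.20 on the log2 scale (adjusted p = 0.0233), while its CPM ran from 18.9 to 26.6 at 50 MPa and from 20.5 to 41.6 in controls and overlapped. Neither call held without control replicate 3 (1.29 for Fabp5 and -0.97 for Rxrb), without 50 MPa replicate 3 (1.69 and -0.75), with all 24 libraries (0.75 and -0.76) or with hip caps fitted alone (2.25 and -0.78). Control replicate 4, left out of the test, had 48.1 CPM of Fabp5 and a macrophage and osteoclast sum of 2410 CPM. That sum was 153 to 275 CPM in the controls used and 329 to 867 CPM at 50 MPa, and its part in the Fabp5 level was not tested. Rxrb also did not pass without batch terms (-0.35), with library type as the only batch term (-0.70) or with library sizes alone (-0.68).

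The likeness of other genes to Aldh1a2 was described by Pearson's r of log2 CPM, over genes with a symbol other than predicted genes and pseudogenes. Over the 22 libraries the 5 highest were Pcdh7 (0.946), Enpep (0.946), Plpp3 (0.945), Hgf (0.942) and Lhfpl2 (0.941). The libraries shared the split between tissues, and all 5 genes were lower in hip cap than in metatarsal controls, Hgf at 0.148 against 5.69 CPM and Pcdh7 at 2.94 against 49.3 CPM. Among the other members r was 0.886 for Crabp1, 0.882 for Crabp2, 0.825 for Rara and 0.813 for Rarb, and it was -0.888 for Dhrs3. Over the 12 metatarsal libraries alone the 5 highest were Tyw3, Ddb1, Ppp1r3d, Top1mt and Tfpt, with r from 0.869 to 0.901, and the other members ran from -0.582 (Rarb) to 0.377 (Crabp2). None of the 5 genes of the 22 libraries was among the 5 of the metatarsals.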

How the data were processed

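RNA from 24 explant samples was sequenced after depletion of ribosomal RNA. The authors trimmed the reads with Trim Galore 0.6.5, assigned them with kallisto to mouse transcripts (GRCm39 per the labels) and collapsed transcripts to genes with tximport. What the authors deposited is a table of unscaled estimated counts, rounded here to integers. Names and transcript lengths came from GENCODE M21 (GRCm38), which is not the authors' annotation, and 48845 of 52178 genes were named.

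Counts were analysed in edgeR 4.0.16 (R 4.3.3) with filterByExpr, TMM and the robust quasi-likelihood test over 22 libraries, with terms for group, sequencing run and library type, as in the study's design. Two-sided p-values were corrected over 21283 genes by the method of Benjamini and Hochberg, separately in 9 comparisons. SE is the log2 fold change over the root of its F statistic. Log2 CPM used a prior count of 2. The run was read from a colour strip in the study's clustering figure, which shows 9 and 15 libraries and does not match the numbers in its methods, so the run is uncertain. Library type is given per sample, with 6 libraries unstranded. The study's methods describe its libraries as strand specific, so library type is uncertain too. The labels do not say that replicates came from separate litters or days, so p-values measure the spread between these samples. Intervals and limits of detection cover counting error only. Total counts of 4185241 to 25104240 set the precision of low genes.

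The 9 genes, the 33 further genes and the 8 marker lists were chosen with earlier results of these data known. Named genes were all 9 members, the highest, lowest and called genes of each further list, and the 5 genes most like Aldh1a2. 1 gene of the further lists is not reported here. Alternatives were DESeq2 1.42.0, RLE factors, library sizes alone, other count filters, all 24 libraries, other batch terms, a replicate block, each tissue alone, a fit within a run, and leaving out each library. The fit was tested on simulated data. Protein sequences were not used here.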

Additional observations from a re-analysis of the deposited data

Results flagged for a closer look

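In 54 groups of 4 libraries (9 genes in 6 groups, the 2 libraries left out of the tests included), 4 had a library whose gap to the nearest other exceeded Dixon's critical value of 0.829 of the group's range. Chance alone gives about 1 in 20 groups. Metatarsal 50 MPa replicate 4, the only unstranded metatarsal library, was the highest of its group for Aldh1a3, at 9.90 CPM, and for Crabp1, at 59.1 CPM. Metatarsal 5 MPa replicate 2 was the highest for Rara, at 73.8 CPM. Hip cap 50 MPa replicate 2, which the study left out, was the highest for Rarb, at 4.09 CPM.

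That last library entered no test, and 4 of the 9 genes were above every hip cap control used in it. Of all genes, 44.1% were, so the count was near the background. Aldh1a2 was at 4.40 CPM, Rarb at 4.09 CPM, Crabp1 at 1.42 CPM and Crabp2 at 2.83 CPM. These 4 genes were also those that were at or below 0.572 CPM in every hip cap control used and higher in metatarsals. The summed skeletal muscle markers there were 122 CPM against 8.42 to 14.3 CPM in those controls, the epidermal markers 23.6 CPM against 0.953 to 3.98 CPM and the chondrocyte markers 13100 CPM against 44700 to 74100 CPM. The part of such cells in these values was not tested.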

How the results depend on the processing

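With at least 10 counts in every library 5 of the 9 genes could be tested, of which 3 passed between tissues in controls, 4 at 5 MPa, 2 at 50 MPa and 2 in hip caps at 50 MPa. With all 24 libraries 3 passed between tissues at 50 MPa. In hip caps at 50 MPa 3 passed in DESeq2 and 2 without batch terms. Leaving out each library in turn gave 0 to 3 there, 0 to 1 for the interaction with 50 MPa (1 in DESeq2), 5 to 7 between tissues in controls, 8 at 5 MPa and 4 to 6 at 50 MPa. With library sizes alone Rarg between tissues stood at -0.18 in controls, -0.16 at 5 MPa and -0.86 at 50 MPa, and without metatarsal 50 MPa replicate 4 Crabp1 stood at 0.53 between tissues at 50 MPa, where leaving out other libraries gave values down to -8.44. The other alternatives kept their counts within 1.5 times of those reported, and the cause of these moves was not tested, except that the stricter filter leaves out genes near 0.

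Correlations of deviations from group means ran from -0.13 to 0.16 in 20 pairs of equal replicate number and from -0.19 to 0.26 in 61 other pairs. Run and library type were not removed from these deviations, so the ranges cannot show whether replicate numbers pair the libraries. With the replicate block 2 of the 9 genes passed in hip caps at 50 MPa, 6 between tissues at 50 MPa, and as many as reported in the other comparisons. The fit within run 1 without a library term, chosen after seeing the data, called 0 in hip caps at 50 MPa. Within hip caps 5 MPa could not be compared within a run. At these depths 2, 2 and 3 counts in all over the hip cap controls used leave the size of the Aldh1a2, Crabp1 and Crabp2 differences poorly known, as their intervals show.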
